A study of Mus musculus with 40 samples.

Results

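Glycolysis and the response to low oxygen were followed through 33 genes, named in a list of glucose carriers, glycolytic enzymes, lactate genes and hypoxia-responsive genes, of 18193 genes measured in all. Of the 33 genes, 31 had a probe set that names a single gene, and 30 of these were tested. Gapdh was read only through array control probe sets, which were kept out of the tests, and Gpi1 and Eno1 were not analysed here. The tissue was breast tissue of mice, on 40 Affymetrix mouse genome arrays in 8 groups of 5 mice. The invasive_tumour group held invasive breast tumours of WAP-TNP8 mice, taken 4 or 5 months after lactation. The groups 1M, 2M, 3M, 4M and 5M held breast tissue of WAP-TNP8 mice that many months after the SV40 oncogene had become active. The before_activation group held breast tissue of WAP-TNP8 mice whose oncogene had not yet become active, and the wild_type group held breast tissue of BalbC mice. In WAP-TNP8 mice the milk-protein promoter WAP drives the SV40 T/t-antigen in mammary epithelial cells, and lactation switches it on. No wild_type mouse is labelled as having lactated, so an active oncogene and a past lactation cannot be told apart in any comparison with the 10 controls, which are the wild_type and before_activation arrays together.

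Glycolysis splits glucose to pyruvate in the cytosol, and much of its control lies at glucose uptake, at hexokinase and at phosphofructokinase. Where oxygen is short, the factor HIF-1α is no longer marked for destruction by prolyl hydroxylases and switches on genes of glucose uptake, glycolysis, lactate export, blood vessel growth and mitochondrial turnover. Many tumours take up much glucose and release lactate even with oxygen at hand.

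All levels below are log2 intensities as the authors normalized them, differences are on the same log2 scale with the standard error (SE) of the limma fit, and a gene is called higher or lower where its p, adjusted over all 45037 probe sets, was at most 0.05. Each gene is read from its brightest probe set, and levels of different genes are not set against each other. The probe sets read for Aldoa, Ndrg1, Adm and Slc2a3 are of types that can bind more than 1 transcript. The makeup of the tissue differed between groups. All 10 measured adipocyte markers were lower in the tumours, with list means of 6.48 to 11.05 in the tumours and 13.60 to 14.74 in the controls, and the least adipocyte signal was in tumour 1 and the most in tumour 3. Endothelial marker means were 6.35 to 6.82 in tumours and 9.05 to 9.66 in controls (8 of 8 markers lower), and basal cell marker means were 6.80 to 7.89 in tumours and 10.18 to 11.60 in controls (7 of 8 lower). Fibroblast marker means were 11.22 to 12.13 in tumours and 13.46 to 14.43 in controls (5 of 7 lower). Macrophage marker means were 9.02 to 10.10 in tumours and 9.99 to 11.41 in controls (4 of 7 lower), and 2 of 2 erythrocyte markers were lower. T and B cell marker means were 3.26 to 4.23 in tumours and 3.47 to 10.16 in controls (none of 8 markers called). Their medians were 3.99 in the controls, 7.87 in 2M and 3M and 3.81 in 4M and 5M. Means of dividing-cell markers were 11.99 to 12.62 in tumours and 4.06 to 8.77 in controls (7 of 7 higher). Luminal epithelial markers, which fit the labelled tissue, were at 10.67 to 11.97 in tumours and 11.25 to 12.58 in controls, with 4 of 11 higher and 4 lower. No list can be read as absent, because the scale has a floor near 2 and no zero. In the glands 6 arrays carried skeletal muscle signal (marker mean above 10), 5 carried brown fat signal (above 9), and 7 had a low Dap spike-in, of which 4 were 5M arrays. Gapdh 3′ signal exceeded 5′ signal by 2.23 to 3.41 in tumours and 1.90 to 2.93 in controls, and by 4.85 in 4M replicate 2. In bulk tissue, fewer cells of a type and less RNA per cell cannot be told apart, and the part of tissue makeup in the results below was not tested.

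Compared with the controls, the tumours had 6 of the 30 tested genes higher and 8 lower. The 6 were the glucose carrier Slc2a1, the hexokinase Hk1, the aldolase Aldoc, the phosphoglycerate kinase Pgk1 and the hypoxia-responsive genes Ndrg1 and Ankrd37. The 8 were the glucose carrier Slc2a3, the hexokinase Hk2, the regulatory enzymes Pfkfb3 and Pfkfb4, the aldolase Aldoa, the mutase Pgam1, the kinase Pdk1 and the mitophagy gene Bnip3. Of all probe sets 18.8% were higher and 14.4% were lower, and among those with a mean of at least 5 the shares were 29.9% and 27.3%, so the shares of 20% and 26.7% among the 30 genes were not above those of the brighter probe sets. In 6 of the 30 genes no tumour overlapped a control (Ndrg1 above; Hk2, Pfkfb3, Aldoa, Pdk1 and Bnip3 below), as in 16.5% of all probe sets. Under the stricter rule of the study, an adjusted p of at most 0.01 and at least a 5-fold change, 4 genes passed, against 6.76% of all probe sets. Ankrd37, near the floor in most controls, was higher, and Pfkfb3, Bnip3 and Pdk1 were lower. The median difference of the 30 genes was -0.20, beside 0 over all probe sets. With before_activation as the only control, Hk1, Pgk1 and Ankrd37 did not pass the test (adjusted p = 0.143, 0.0621 and 0.0607), and with the t-test of the study's methods Slc2a1, Hk1 and Ankrd37 did not.

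**Figure D1:**
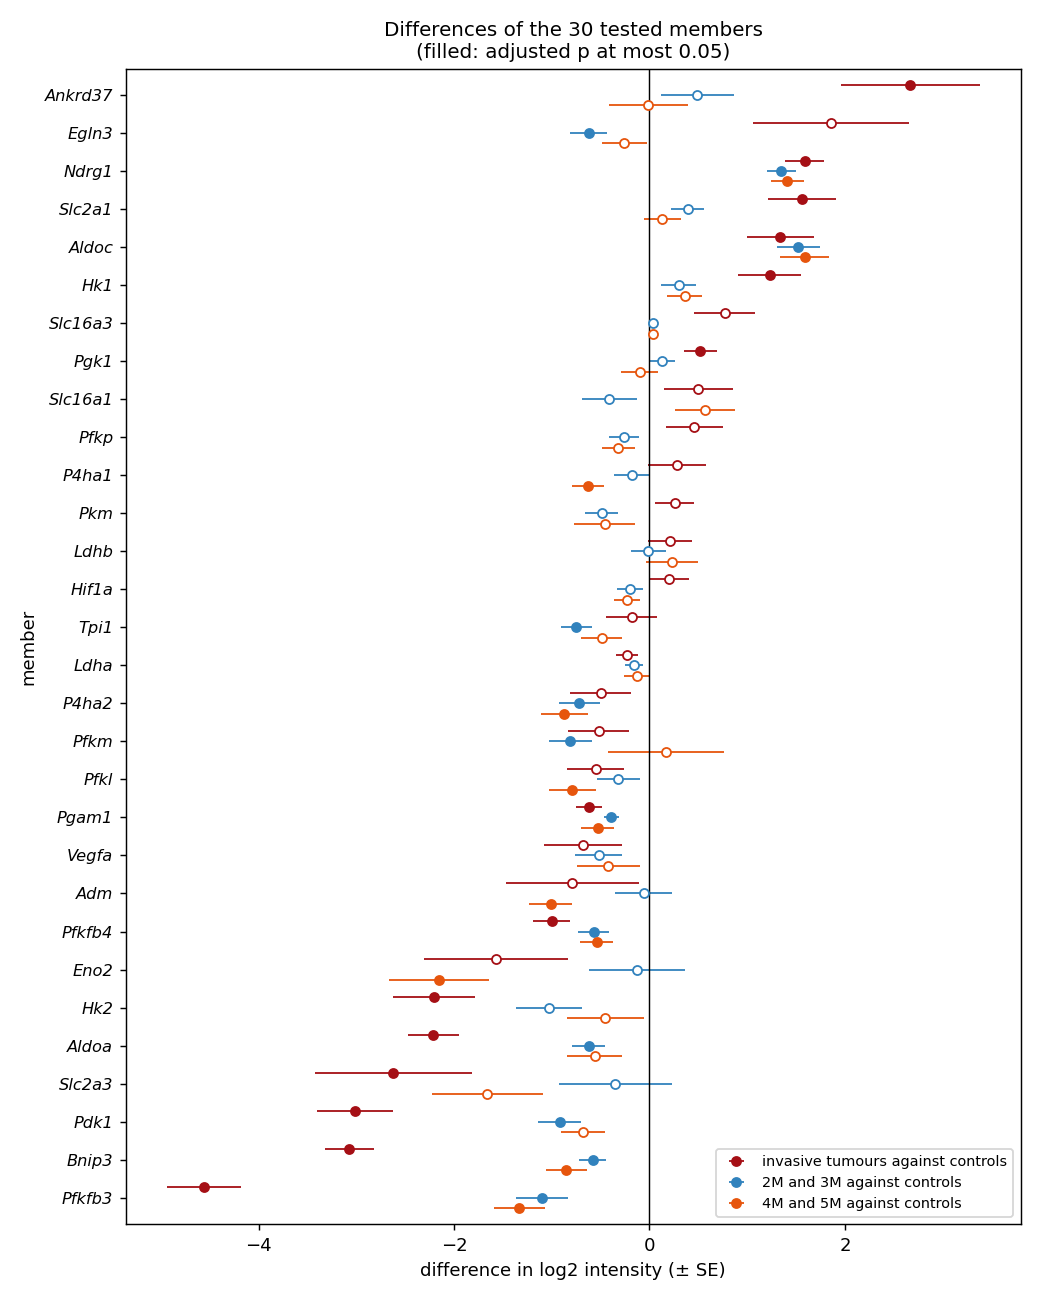
Difference in log2 intensity (x axis, points with SE bars) of each tested gene (y axis) for invasive tumours, for 2M and 3M and for 4M and 5M, each against the same 10 controls; filled points have an adjusted p of at most 0.05. Pfkfb3 lies lowest at -4.56 and Ankrd37 highest at 2.67 in tumours, and Ndrg1 and Aldoc lie to the right in all 3 sets.

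Slc2a1 encodes GLUT1, the carrier for basal glucose uptake in most cells. Its level was 13.69, 12.50, 11.01, 13.14 and 11.82 in the 5 tumours, against 10.17 to 11.40 in the controls (median 10.83). Tumour 3 lay among the controls and the other tumours lay above every control. The difference was 1.56 ± 0.35 (2.95-fold, adjusted p = 0.0027), and against 4M and 5M together it was 1.43 ± 0.38 (adjusted p = 0.0127), a call lost without the arrays carrying muscle (1.36, adjusted p = 0.0651) or brown fat (1.30, adjusted p = 0.0707). Slc2a3 encodes GLUT3, a high-affinity carrier best known from neurons. Its probe set read 8.22, 6.50, 6.57, 6.22 and 4.79 in the tumours, against 7.80 to 13.04 in the controls (median 8.29), so only tumour 1 lay within the control range. The difference was -2.62 ± 0.80 (6.14-fold lower, adjusted p = 0.0205), and without tumour 5 it was -2.20 (adjusted p = 0.0651). GLUT1 and GLUT3 transcripts thus differed from the controls in opposite directions.

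Hexokinase traps glucose in the cell as glucose 6-phosphate; Hk1 is the widespread form and Hk2 is the form of muscle and fat. Hk1 read 13.01, 11.44, 11.27, 12.02 and 12.67 in the tumours, against 10.15 to 11.84 in the controls (median 10.87). Tumours 1, 4 and 5 exceeded all controls, and the difference was 1.23 ± 0.32 (2.35-fold, adjusted p = 0.00765). Against before_activation alone it was 0.83 (adjusted p = 0.143), and Hk1 was 10.94 to 11.84 in before_activation and 10.15 to 10.80 in wild_type. The other probe set of Hk1 gave 1.32 ± 1.14 in tumours against controls. Hk2 read 9.29, 9.31, 9.87, 8.92 and 9.36 in the tumours, against 10.08 to 13.10 in the controls (median 11.82), with no overlap. The difference was -2.20 ± 0.42 (4.61-fold lower, adjusted p = 0.000776), and it was -1.75 ± 0.40 against 4M and 5M (adjusted p = 0.00502). In 2M and 3M Hk2 was -1.03 ± 0.34 from the controls, just outside the threshold (adjusted p = 0.0549).

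The 3 subunit genes of phosphofructokinase, Pfkl (liver), Pfkm (muscle) and Pfkp (platelet), passed the test in neither direction in tumours, at -0.55 ± 0.29, -0.52 ± 0.31 and 0.46 ± 0.29. Each gene but Pfkm had 2 other probe sets, which disagreed. For Pfkl the one with a mean of 11.45 was at -0.51 ± 0.34 (not past the test), and the one with a mean of 2.92, near the floor, was higher in tumours (3.13 ± 0.38). For Pfkp the one with a mean of 2.75 was at -0.60 ± 0.50 (not past the test), and the one with a mean of 5.17 was higher (2.92 ± 0.41). Pfkm followed skeletal muscle signal: the arrays with the 4 highest levels of Pfkm (13.63, 13.25, 12.58 and 12.30) were those with the 4 highest means of the muscle markers (15.05, 14.59, 14.31 and 12.91). Pfkfb3 encodes the bifunctional enzyme with the strongest kinase bias, which makes fructose 2,6-bisphosphate, the main activator of phosphofructokinase. It read 8.71, 7.77, 10.39, 8.12 and 9.51 in the tumours, against 12.59 to 14.12 in the controls (median 13.51), and no tumour came near a control. The difference was -4.56 ± 0.38 (23.6-fold lower, adjusted p = 5.05e-07), and its dimmer probe set gave -2.42 ± 0.32. Tumour 3, with the most adipocyte signal, had the highest level, while tumour 2, and not tumour 1 with the least such signal, had the lowest. Pfkfb4, a sister enzyme, read 6.50 to 7.73 in the tumours and 7.41 to 8.47 in the controls (-1.0 ± 0.19, 2.00-fold lower, adjusted p = 0.000915).

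Aldolase splits fructose 1,6-bisphosphate; Aldoa is the form of muscle and most tissues and Aldoc the form first known from brain. Aldoa read 14.03, 12.88, 12.72, 13.23 and 13.09 in the tumours, against 14.55 to 16.04 in the controls (median 15.39), with no overlap. The difference was -2.21 ± 0.26 (4.62-fold lower, adjusted p = 9.75e-06), and each of its 4 other probe sets was lower as well, by 0.75 to 2.53 on the log2 scale. Those 4 are also of a type that can bind more than 1 transcript. Aldoc read 11.95, 11.97, 10.61, 11.86 and 11.96 in the tumours, against 9.37 to 11.33 in the controls (median 10.21). Tumour 3 alone lay within the control range, and the difference was 1.34 ± 0.34 (2.53-fold, adjusted p = 0.00708). As with the glucose carriers and the hexokinases, one isoform was higher and another lower in the tumours as a group, though not in each tumour.

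**Figure D2:**
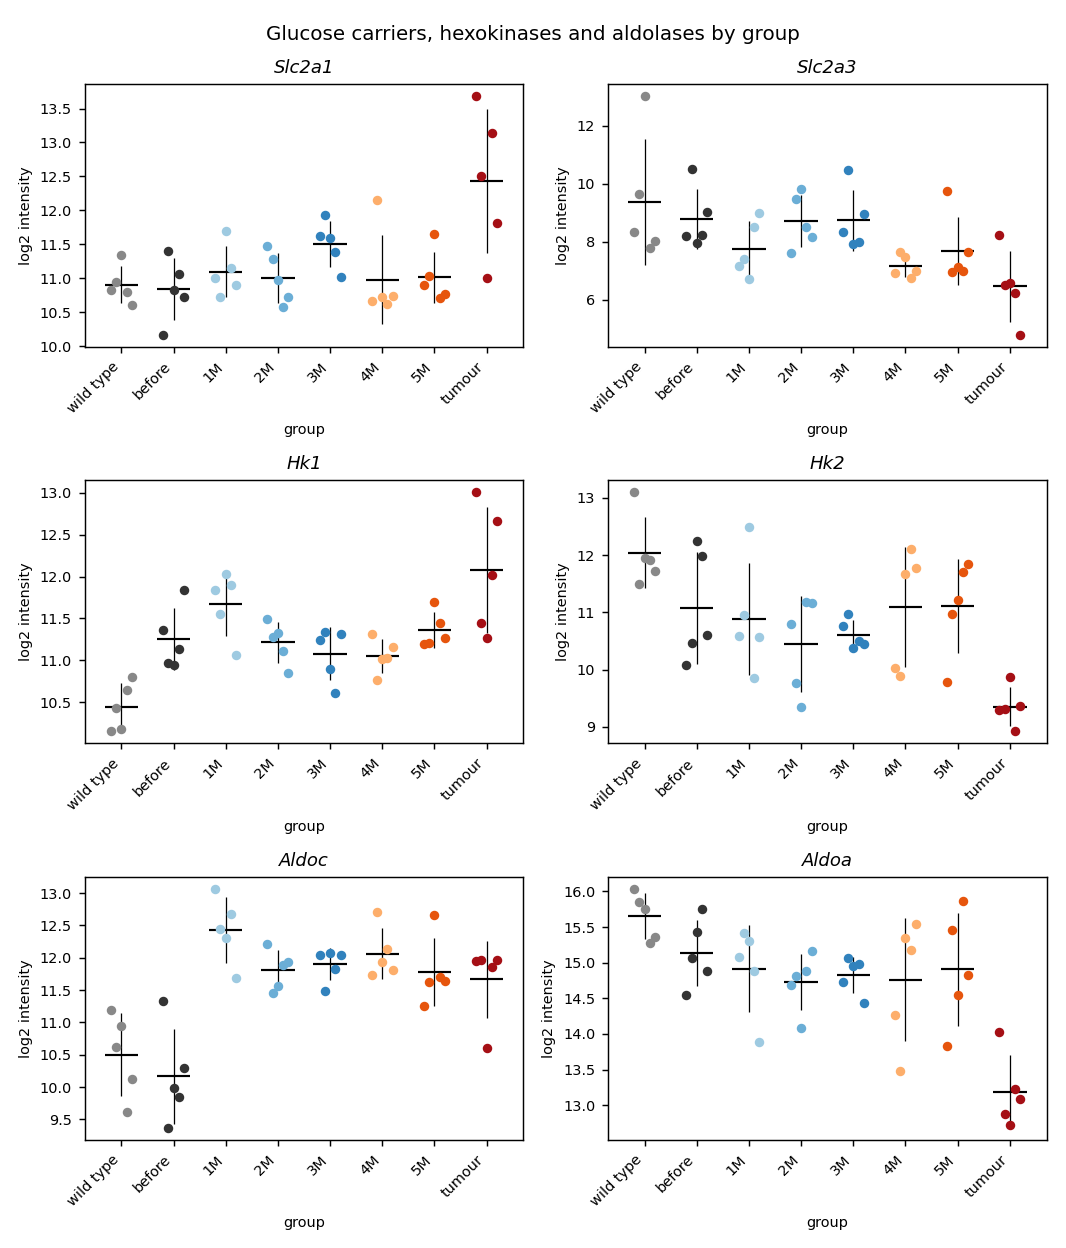
Log2 intensity (y axis) of 6 genes on each of the 40 arrays by group (x axis, in order of stage), with group mean (horizontal line) and SD (vertical line). Slc2a1 and Hk1 are highest in the tumours, Slc2a3, Hk2 and Aldoa lowest there, and Aldoc is already above the controls at 1M.

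Triose phosphate isomerase Tpi1 (-0.18 ± 0.26), the pyruvate kinase Pkm (0.26 ± 0.20) and the neuronal enolase Eno2 (-1.57 ± 0.74) did not pass the test in tumours. Pgk1, an ATP-making step, was higher by 0.52 ± 0.17 (1.43-fold, adjusted p = 0.0307), at 14.38 to 14.91 in tumours and 13.46 to 14.49 in controls. That call was lost without tumour 1 (0.44, adjusted p = 0.0948) or tumour 2 (0.50, adjusted p = 0.0686), while its other probe sets gave 0.65 ± 0.12 and 0.68 ± 0.08, both past the threshold. Both of these are of a type that can bind more than 1 transcript. Pgam1, the next enzyme, was lower by 0.62 on the log2 scale (SE 0.13, 1.54-fold lower, adjusted p = 0.00144), at 12.63 to 13.32 in tumours and 13.25 to 13.89 in controls. Eno2 read 5.41, 5.11, 5.08 and 4.44 in tumours 2 to 5 and 8.44 in tumour 1, against 5.40 to 8.73 in the controls, and without tumour 1 the difference was -2.26 (adjusted p = 0.0181). Gapdh, read from the 3′ control probe set and not tested, was 14.91 to 15.24 in tumours and 14.57 to 15.30 in controls.

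Ldha, the lactate dehydrogenase subunit that favours lactate, differed by -0.23 ± 0.11 in tumours (adjusted p = 0.154, 95% interval -0.47 to 0.01), and Ldhb, the subunit that favours pyruvate, by 0.21 ± 0.23 (adjusted p = 0.62). The lactate carrier Slc16a1 (MCT1) differed by 0.50 ± 0.35 (adjusted p = 0.359). Slc16a3 (MCT4), the carrier for lactate export, read 4.67, 2.78, 2.11, 2.81 and 2.13 in the tumours, against 2.08 to 2.18 in the controls, which is the floor, so 3 of 5 tumours stood above the floor. The difference was 0.77 ± 0.31 (adjusted p = 0.0709), it passed the test without tumour 1 (0.33, adjusted p = 0.0424), tumour 3 (0.97, adjusted p = 0.0281) or tumour 5 (0.96, adjusted p = 0.0309), and a fold from such levels depends on the floor. Pdk1 is the kinase that switches off pyruvate dehydrogenase and so keeps pyruvate out of the citrate cycle. It read 9.25, 9.01, 7.30, 7.11 and 7.16 in the tumours, against 10.31 to 11.87 in the controls (median 10.85). No tumour overlapped a control, and the difference was -3.01 ± 0.39 (8.03-fold lower, adjusted p = 2.5e-05). Of its other 3 probe sets, the pair with clear signal was also lower (-1.49 ± 0.39 and -1.69 ± 0.33).

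HIF-1α binds DNA at the hypoxia response element, whose core is ACGTG or GCGTG. These letters were sought on either strand in promoters of 300 bases around each gene start from RefSeq (GRCm38.p6), and overlapping matches such as the E-box CACGTG were counted once. Of the 33 genes 31 had a promoter in that table, and 28 of the 31 (90.3%) had the letters in at least 1 promoter, as did 46.7% of all genes. Per promoter the share was 80% of 45, beside 43.8% of 32851 promoters of the same length. Base composition was not taken into account, and a match is not a site of binding. The first listed promoters of 6 genes are shown because their genes turned out on both sides of the comparison, with the core letters in capitals. The first 3 belong to genes that were lower in tumours and the last 3 to genes that were higher.
Bnip3: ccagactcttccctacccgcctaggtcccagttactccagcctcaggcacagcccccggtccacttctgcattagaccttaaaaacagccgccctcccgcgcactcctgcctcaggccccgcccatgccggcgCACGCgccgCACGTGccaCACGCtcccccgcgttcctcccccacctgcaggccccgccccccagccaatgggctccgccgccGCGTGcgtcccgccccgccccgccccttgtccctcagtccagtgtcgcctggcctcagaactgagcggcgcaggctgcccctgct
Pdk1: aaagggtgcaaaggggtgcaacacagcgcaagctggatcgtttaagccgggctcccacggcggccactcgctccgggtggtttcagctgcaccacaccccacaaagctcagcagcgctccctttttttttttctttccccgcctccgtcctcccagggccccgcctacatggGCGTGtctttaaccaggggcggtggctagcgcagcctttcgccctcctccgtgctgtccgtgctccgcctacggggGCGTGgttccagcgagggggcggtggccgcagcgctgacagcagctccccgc
Pfkfb3: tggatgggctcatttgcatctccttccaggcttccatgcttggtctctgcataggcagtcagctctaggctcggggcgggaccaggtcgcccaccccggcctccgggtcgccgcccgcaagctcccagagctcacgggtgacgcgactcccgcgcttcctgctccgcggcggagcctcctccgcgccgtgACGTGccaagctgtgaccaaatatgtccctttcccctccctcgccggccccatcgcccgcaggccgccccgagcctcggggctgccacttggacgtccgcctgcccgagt
Slc2a1: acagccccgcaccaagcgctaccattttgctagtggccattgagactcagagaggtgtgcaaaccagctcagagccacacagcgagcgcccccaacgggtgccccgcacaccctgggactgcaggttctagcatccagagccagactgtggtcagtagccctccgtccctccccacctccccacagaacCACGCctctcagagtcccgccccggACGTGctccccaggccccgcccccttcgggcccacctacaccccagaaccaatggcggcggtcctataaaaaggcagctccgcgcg
Ankrd37: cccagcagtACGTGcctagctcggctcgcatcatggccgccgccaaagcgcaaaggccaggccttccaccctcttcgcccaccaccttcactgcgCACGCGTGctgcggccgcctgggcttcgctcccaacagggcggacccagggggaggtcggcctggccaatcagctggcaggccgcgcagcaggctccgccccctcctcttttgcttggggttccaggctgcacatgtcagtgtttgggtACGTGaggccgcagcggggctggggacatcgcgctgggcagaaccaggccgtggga
Aldoc: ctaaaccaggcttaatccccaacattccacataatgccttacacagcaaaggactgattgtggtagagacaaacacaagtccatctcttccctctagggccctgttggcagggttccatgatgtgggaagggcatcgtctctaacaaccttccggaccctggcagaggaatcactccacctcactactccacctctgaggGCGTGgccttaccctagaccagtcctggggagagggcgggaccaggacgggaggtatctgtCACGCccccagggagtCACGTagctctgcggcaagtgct
These stretches lie at chr7:138909457-138909756 on the minus strand (Bnip3, 4 separate cores), chr2:71872974-71873273 on the plus strand (Pdk1, 2 cores), chr2:11553880-11554179 on the minus strand (Pfkfb3, 1 core), chr4:119108495-119108794 on the plus strand (Slc2a1, 2 cores), chr8:45999801-46000100 on the minus strand (Ankrd37, 3 cores) and chr11:78322823-78323122 on the plus strand (Aldoc, 3 cores).

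Hif1a itself, the oxygen-regulated subunit, differed by 0.20 ± 0.20 in tumours (adjusted p = 0.573), although it is controlled mostly as a protein. Bnip3, which marks mitochondria for removal, read 11.78, 11.42, 11.38, 11.36 and 10.06 in the tumours, against 13.44 to 14.56 in the controls (median 14.42). The ranges did not overlap, and the difference was -3.07 ± 0.25 (8.37-fold lower, adjusted p = 3.34e-07). Ndrg1, a gene induced by hypoxia and by differentiation, went the other way, at 15.01, 14.76, 15.12, 14.78 and 14.19 in the tumours, against 12.40 to 13.66 in the controls (median 13.19). There was no overlap, the difference was 1.59 ± 0.20 (3.01-fold, adjusted p = 2.14e-05), and all 4 other probe sets of Ndrg1 were higher too, by 1.39 to 2.41. Ankrd37, a small HIF-1 target of ankyrin repeats, read 7.85, 7.12, 3.07, 6.53 and 4.09 in the tumours, against 2.53 to 5.17 in the controls (median 2.71). Tumours 1, 2 and 4 lay above all controls, and the difference was 2.67 ± 0.71 (6.37-fold, adjusted p = 0.00835). Most controls were near the floor of the scale, so the fold, and with it the place under the 5-fold rule, depends on the floor.

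The other hypoxia-responsive genes did not pass the test in tumours. Egln3 encodes PHD3, a prolyl hydroxylase that marks HIF for destruction and is itself a HIF target. It read 13.08, 12.60, 6.74, 12.85 and 10.72 in the tumours, against 8.25 to 9.78 in the controls (median 9.39). Tumour 3 lay below every control and the other tumours above. The difference was 1.86 ± 0.80 (adjusted p = 0.0962), and without tumour 3 it was 2.98 (adjusted p = 2.99e-05). Adm, the vasodilator adrenomedullin, read 12.41, 10.59, 7.91, 9.17 and 6.71 in the tumours, against 9.46 to 10.73 in the controls, a spread that covered both sides of the controls (-0.79 ± 0.68, adjusted p = 0.485). Without tumour 1 Adm was lower by 1.55 (adjusted p = 0.037). Vegfa, the main growth factor for blood vessels, differed by -0.68 ± 0.40 (adjusted p = 0.245). The collagen prolyl hydroxylase subunits P4ha1 and P4ha2 differed by 0.28 ± 0.30 and -0.50 ± 0.31, and another, dim probe set of P4ha1 was higher (1.03 ± 0.35).

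**Figure D3:**
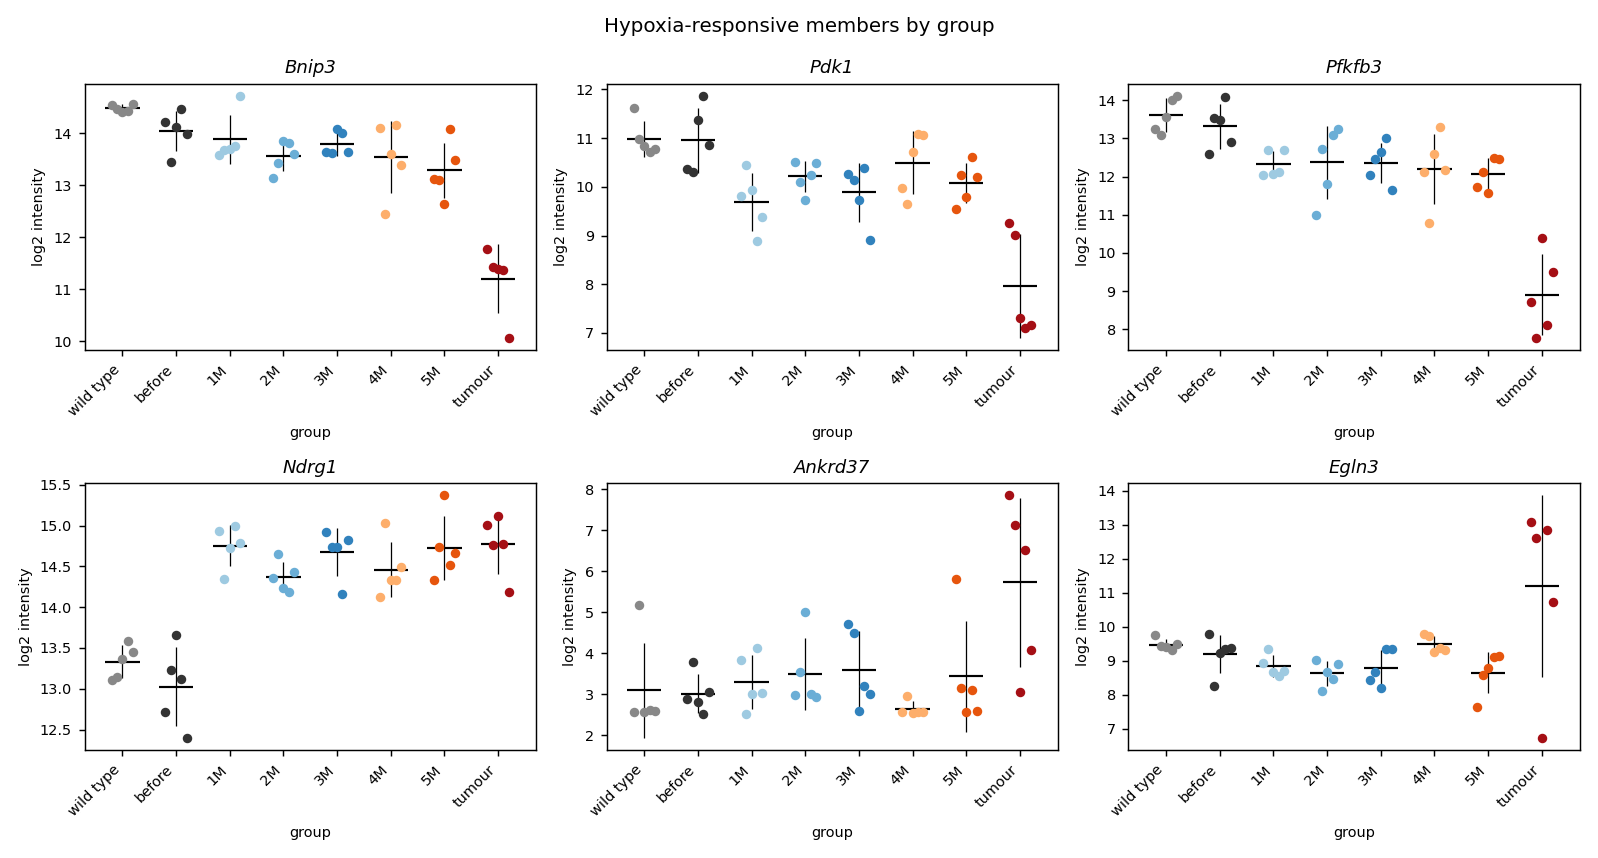
Log2 intensity (y axis) of 6 genes on each of the 40 arrays by group (x axis, in order of stage), with group mean (horizontal line) and SD (vertical line). Bnip3, Pdk1 and Pfkfb3 are lowest in the tumours, Ndrg1 is above the controls from 1M on, and Ankrd37 and Egln3 are spread widely over the tumours, with SDs of 2.05 and 2.66.

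The 5 tumours were far apart in some of these genes. Their SD was 2.66 for Egln3, 2.24 for Adm, 2.05 for Ankrd37 and 1.57 for Eno2, each larger than in at least 96.1% of the 21550 probe sets with a mean of at least 5, whose median SD over the tumours was 0.48. The SDs of Ldha (0.20), Pgk1 (0.22) and Pfkm (0.24) were at the low end. Tumour 1 had the highest level of the 5 tumours in 20 of the 30 genes, while it was highest for 20.9% of those probe sets. Tumour 3 was lowest in 15 of the 30 genes and lowest for 24.4% of those probe sets. Tumour 1 was thus at the top for Slc2a1, Slc16a3, Ankrd37, Egln3, Adm, P4ha1 and Pfkp, and tumour 3 was at the bottom for Slc2a1, Ankrd37, Egln3, P4ha1 and Aldoc. The adipocyte marker mean was 6.48 in tumour 1, 8.18 in tumour 2, 11.05 in tumour 3, 8.61 in tumour 4 and 9.82 in tumour 5, and its part in the order of the tumours was not tested.

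**Figure D4:**
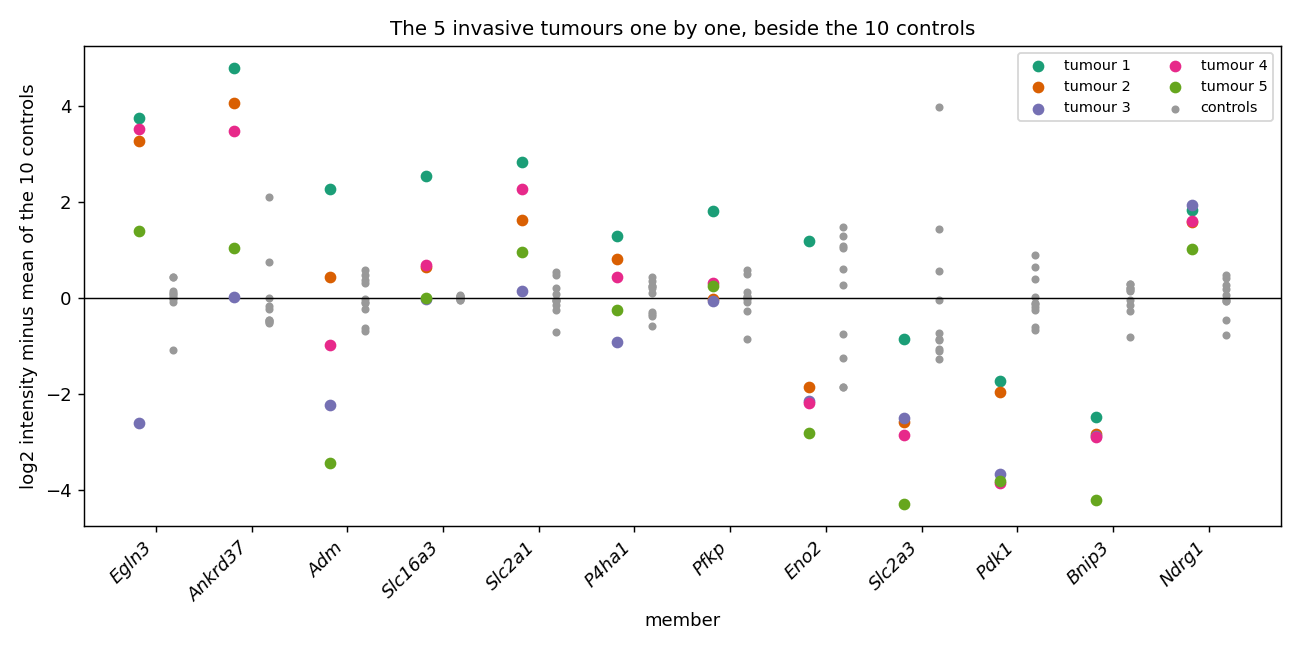
Log2 intensity minus the mean of the 10 controls (y axis) for 12 genes (x axis), with the 5 tumours as coloured points to the left and the controls as grey points to the right of each gene position. Tumour 1 is at the top of the tumours for most genes and tumour 3 near the bottom for Egln3, Ankrd37 and Slc2a1, whereas all 5 tumours lie together above the controls for Ndrg1 and below them for Bnip3.

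The next comparison asks what differed early after activation. In 2M and 3M together 2 genes were higher and 10 lower than in the controls, beside 5.36% and 6.53% of all probe sets (10.5% and 12.4% of those with a mean of at least 5). The lower share, 33.3% of the 30 genes, was above the background, and none passed the 5-fold rule, beside 0.562% of probe sets. The median difference was -0.33, beside 0.01 over all probe sets. The 2 higher genes were Ndrg1 and Aldoc. Ndrg1 was 14.16 to 14.92 (median 14.54) in 2M and 3M, against 12.40 to 13.66 in the controls (1.35 ± 0.15, 2.54-fold, adjusted p = 1.42e-05), and Aldoc was 11.46 to 12.21 (median 11.92) in 2M and 3M, against 9.37 to 11.33 in the controls (1.52 ± 0.22, 2.88-fold, adjusted p = 0.000205). Neither gene overlapped the controls, which held for 0.899% of all probe sets. Among the lower genes, Pfkfb3 was 10.99 to 13.26 in 2M and 3M and 12.59 to 14.12 in the controls (-1.10 ± 0.27, adjusted p = 0.0121), and Pdk1 was 8.91 to 10.51 in 2M and 3M, against 10.31 to 11.87 in the controls (-0.92 ± 0.22, adjusted p = 0.00789). Both ranges overlapped those of the controls. The other lower genes were Pfkm (-0.81 ± 0.22), Tpi1 (-0.75 ± 0.16), P4ha2 (-0.72 ± 0.21), Aldoa (-0.62 ± 0.17), Egln3 (-0.62 ± 0.19), Bnip3 (-0.58 ± 0.14), Pfkfb4 (-0.57 ± 0.16) and Pgam1 (-0.39 ± 0.08). These 10 span glycolysis and the hypoxia-responsive genes, and the adipocyte marker mean was 12.93 to 14.08 in 2M and 3M, against 13.60 to 14.74 in the controls, with 6 of 10 markers lower. Gapdh 3′ minus 5′ signal, which grows as RNA or its amplification shortens, was 2.67 to 3.76 in 2M and 2.87 to 3.04 in 3M, against 2.39 to 2.60 in wild_type and 1.90 to 2.93 in before_activation, and its part in these calls was not tested. The count of 10 was 7 without the arrays carrying muscle, where Aldoa (adjusted p = 0.0664), Egln3 (0.0792) and P4ha2 (0.0622) were lost and Pfkm kept its call (-0.61, adjusted p = 0.00352). It was also 7 without the brown fat arrays, where Aldoa, Egln3 and P4ha2 were lost (adjusted p = 0.0936, 0.106 and 0.0595), and without the low Dap arrays, where Pfkfb4, Egln3 and P4ha2 were lost (adjusted p = 0.137, 0.119 and 0.0808). All arrays left out in these refits were controls, and none was a 2M or 3M array. Leaving out single arrays ended the calls of Egln3 (15 of 20 removals, adjusted p up to 0.0703) and P4ha2 (4 of 20, up to 0.0591). With before_activation as the only control, none of the 30 was lower. Against all 10 controls, the dimmer probe sets of Vegfa (-1.51 ± 0.27, adjusted p = 0.00098) and Adm (-1.20 ± 0.22, adjusted p = 0.00114) were lower, though neither gene was called. For Aldoa another probe set showed no difference (0.05 ± 0.10, adjusted p = 0.878), and the rest of its probe sets were lower.

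In 4M and 5M, Ndrg1 and Aldoc were again the 2 higher genes and 9 genes were lower, beside 7.8% and 7.02% of all probe sets (15% and 13.3% of those with a mean of at least 5). None passed the 5-fold rule, beside 0.762% of probe sets, and the median difference was -0.44, beside 0.01 over all probe sets. Ndrg1 was 14.13 to 15.37 (median 14.50) in 4M and 5M, against 12.40 to 13.66 in the controls (1.41 ± 0.17, adjusted p = 1.22e-05), with no overlap, which held for 1.69% of probe sets. Aldoc was 11.26 to 12.71 in 4M and 5M, against 9.37 to 11.33 in the controls (1.59 ± 0.25, adjusted p = 0.000248). The lower genes were Eno2 (-2.15 ± 0.51), Pfkfb3 (-1.33 ± 0.26), Adm (-1.01 ± 0.22), P4ha2 (-0.87 ± 0.24), Bnip3 (-0.85 ± 0.21), Pfkl (-0.79 ± 0.24), P4ha1 (-0.63 ± 0.16), Pfkfb4 (-0.54 ± 0.17) and Pgam1 (-0.53 ± 0.17). The count of 9 was 3 without the arrays that carried muscle, 6 without those that carried brown fat and 3 without those with a low Dap spike-in. Leaving out single arrays ended the calls of Pgam1 (14 of 20 removals), Pfkl (9 of 20) and Pfkfb4 (8 of 20), with adjusted p up to 0.0787. Adipocyte marker means were 12.86 to 14.06 in 4M and 5M, with 7 of 10 markers lower. Gapdh 3′ minus 5′ signal was 2.26 to 4.85 in 4M and 1.79 to 3.52 in 5M. 4M replicate 2, at 4.85, was the lowest 4M or 5M array for Pfkfb3, Pfkl, Pgam1, P4ha1, P4ha2 and Bnip3. It was not the lowest for Eno2, Adm or Pfkfb4, and the part of RNA quality in these calls was not tested.

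The study set the 1M arrays aside because of the recent lactation. In them Ndrg1 (14.93, 14.35, 14.72, 14.99 and 14.79) and Aldoc (13.07, 12.44, 12.30, 12.68 and 11.68) were already above all controls, by 1.57 ± 0.19 (adjusted p = 0.000246) and 2.10 ± 0.33 (adjusted p = 0.00289). Groups that do not overlap made up 1.78% of probe sets in this comparison. Pfkfb3 (-1.13 ± 0.25, adjusted p = 0.0197) and Pdk1 (-1.28 ± 0.28, adjusted p = 0.0212) were the 2 lower genes, and neither passed without the arrays that carried muscle (-0.94, adjusted p = 0.144, and -1.0, adjusted p = 0.124). Without the low Dap arrays Pdk1 was at -1.36 (adjusted p = 0.0577), and each gene lost its call in 3 of 15 removals of 1 array (adjusted p up to 0.0791). Of all probe sets, 2.67% were higher, 1.18% lower and 0.384% past the 5-fold rule, which no gene of the 30 passed. The comparisons with the controls share those 10 arrays, so their results are not independent of each other.

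The comparison of before_activation with wild_type, which asks what the inactive transgene goes with, gave no call for any of the 30 genes with limma (smallest adjusted p = 0.106), and 0% of all probe sets were higher, 0% lower and 0% past the 5-fold rule. At an unadjusted p of at most 0.05 there were 6 of the 30 genes, beside 34.4% of all probe sets. The t-test of the study's methods with the same adjustment called Hk1 and P4ha1 higher and Slc16a3 lower, beside 0.617% of all probe sets higher and 24.1% lower. Hk1 was 11.36, 10.97, 10.94, 11.14 and 11.84 in before_activation, against 10.15, 10.43, 10.18, 10.64 and 10.80 in wild_type (0.81 ± 0.20). The other probe set of Hk1, with a mean of 7.07, differed by 3.61 ± 0.68 (limma adjusted p = 0.106). P4ha1 was 9.77 to 9.99 in before_activation and 8.98 to 9.65 in wild_type (0.60 ± 0.11). Hk1 and P4ha1 had no overlap between the groups, as did 17.6% of all probe sets. Slc16a3 was 2.08 to 2.12 in before_activation and 2.12 to 2.18 in wild_type (-0.06), at the floor of the scale.

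Against glands of the same months after lactation, 4 genes were higher in the tumours and 5 lower, beside 14.4% and 10.8% of all probe sets (22.7% and 21% of those with a mean of at least 5), and 1 passed the 5-fold rule, beside 3.71%. The shares of 13.3% and 16.7% of the 30 genes were thus not above those of the brighter probe sets. The lower genes were Pfkfb3 (-3.24 ± 0.43, 9.42-fold lower, adjusted p = 8.05e-05), Pdk1 (-2.32 ± 0.40), Bnip3 (-2.21 ± 0.33), Hk2 (-1.75 ± 0.40) and Aldoa (-1.64 ± 0.38). Pfkfb3, Pdk1 and Bnip3 did not overlap between the groups, which held for 9.38% of all probe sets, and all 5 genes were lower in 5 of 5 tumours than the gland mean. The higher genes were Ankrd37 (2.69 ± 0.75), Slc2a1 (1.43 ± 0.38), P4ha1 (0.90 ± 0.31) and Hk1 (0.87 ± 0.25). None of these 4 passed without the arrays carrying muscle (adjusted p from 0.0608 to 0.151) or brown fat (0.0653 to 0.101), and without the arrays with a low Dap spike-in Hk1 alone passed (1.00, adjusted p = 0.0485), while Hk2 was at -1.53 (adjusted p = 0.0591). The call of Ankrd37 was lost without tumour 1 (2.16, adjusted p = 0.0542) or tumour 2 (2.34, adjusted p = 0.0517), that of Hk1 without tumour 1 (0.64, adjusted p = 0.0541) or tumour 5 (0.73, adjusted p = 0.0563), and that of P4ha1 in 10 of 15 removals of 1 array. Ndrg1 (0.18 ± 0.20, 95% interval -0.24 to 0.60) and Aldoc (-0.25 ± 0.27, interval -0.83 to 0.32) did not pass the test here.

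Within the glands, 4M and 5M differed from 2M and 3M in 1 of the 30 genes, beside 0.173% of probe sets higher, 0.215% lower and 0% past the 5-fold rule, and none of the 30 was free of overlap, as were 0.0222% of probe sets. Eno2 was 3.41, 4.65, 5.16, 5.36 and 5.10 in 4M and 6.88, 4.56, 5.78, 4.07 and 6.11 in 5M, against 7.26, 8.09, 8.22, 6.16 and 6.12 in 2M and 7.48, 7.95, 7.18, 7.17 and 5.71 in 3M. Of the 10 later arrays, 3 lay within the earlier range, and the difference was -2.03 ± 0.41 (4.07-fold lower, adjusted p = 0.0444). The call was lost in 16 of 20 removals of 1 array, with adjusted p up to 0.0908, and without the arrays carrying muscle (-1.80, adjusted p = 0.258), brown fat (-1.91, adjusted p = 0.185) or a low Dap spike-in (-2.04, adjusted p = 0.251). In the same comparison the median difference of 8 T and B cell markers was -2.01, with none of them called. The part of such cells in the Eno2 difference was not tested.

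In the same fits 6 further lists of genes around these pathways were read. Their counts stand beside 29.9% higher and 27.3% lower of the probe sets with a mean of at least 5 in tumours, 10.5% and 12.4% in 2M and 3M, and 15% and 13.3% in 4M and 5M. Of 26 genes of pyruvate dehydrogenase and the citrate cycle, 24 were lower and 1 higher in tumours than in controls (median -1.33), among them the pyruvate carrier gene Mpc1 (-3.78 ± 0.29), the pyruvate carboxylase gene Pcx (-4.69 ± 0.35) and the succinate dehydrogenase genes Sdha (-1.91 ± 0.15) and Sdhc (-1.10 ± 0.10). In 2M and 3M, 18 of the 26 were lower and 1 higher (median -0.52), with Sdhd at -0.64 ± 0.09 and Sdhb at -0.67 ± 0.12, and in 4M and 5M 1, Pcx, was lower (-1.02 ± 0.25) and 1, the kinase gene Pdk3, higher (1.36 ± 0.28). Of 17 measured isoforms and opposing enzymes of the glucose pathway, 8 were lower and 1 higher in tumours. The fat and muscle glucose carrier Slc2a4 (GLUT4) averaged 5.87 in tumours and 11.83 in controls (-5.96 ± 0.35), and the fructose carrier Slc2a5 averaged 3.81 in tumours and 9.44 in controls (-5.63 ± 0.49). Adipocyte markers were lower in the same tumours, as were most endothelial, basal and fibroblast markers. The part of tissue makeup in these differences was not tested. Of 8 glycogen genes, 6 were lower in tumours, with the phosphorylase gene Pygl at -5.00 ± 0.31, and of 6 pentose phosphate genes 3 were lower, with the dehydrogenase gene Pgd at -1.67 ± 0.22.

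Among 8 oxygen-sensing genes, 2 were higher and 2 lower in tumours than in controls. Of 21 other HIF target genes 7 were higher and 5 lower, and these shares were near those of the brighter probe sets. Against 4M and 5M, 10 of the 21 were higher in tumours and 5 lower (median 1.02), beside 22.7% and 21% of the brighter probe sets. Arnt2, a partner subunit of HIF-1α, averaged 8.38 in tumours and 4.32 in controls (4.06 ± 0.13, adjusted p = 8.71e-11). Vhl, which tags hydroxylated HIF for destruction, differed from the controls by 1.02 ± 0.17. Epas1 (HIF-2α), abundant in endothelium and fat, was lower by 2.09 (SE 0.16), and the hydroxylase gene Egln1 by 0.90 (SE 0.16). In 2M and 3M, 2 of the 21 HIF target genes were higher and 4 lower. The carbonic anhydrase gene Car12 averaged 10.45 in tumours and 4.37 in controls (6.08 ± 0.41, adjusted p = 7.11e-08), and it was also higher in 1M (3.98 ± 0.46), in 2M and 3M (3.07 ± 0.37) and in 4M and 5M (3.24 ± 0.33). Stc2, a secreted glycoprotein gene, was lower in the same 4 comparisons, at -4.99 in tumours, -3.02 in 1M, -1.70 in 2M and 3M and -2.12 in 4M and 5M.

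Pfkfb3 and Bnip3, lower in the tumours, and Ndrg1, higher there, lay beside the adipocyte markers as follows. Pfkfb3 was 7.77 to 10.39 in tumours with adipocyte means of 6.48 to 11.05, and 10.79 to 14.12 in all 35 gland arrays with adipocyte means of 12.86 to 14.74. Bnip3 was 10.06 to 11.78 in the tumours and 12.45 to 14.72 in the glands. Ndrg1 was 14.19 to 15.12 in the tumours, and it was 14.13 to 15.37 in the glands after activation and 12.40 to 13.66 in the controls. The adipocyte means after activation (12.86 to 14.14) overlapped those of before_activation (13.60 to 14.28) and all lay below those of wild_type (14.20 to 14.74). Adipocyte medians were 13.57 in 2M and 3M and 13.49 in 4M and 5M, against 14.25 in the controls. Pfkfb3 and Bnip3 were lowest in the tumours, which had the lowest adipocyte means. Within the tumours the order differed by gene. Pfkfb3 was 8.71 in tumour 1, with the least adipocyte signal, and 10.39 in tumour 3, with the most. Bnip3 was 11.78 in tumour 1 and 11.38 in tumour 3, and Pdk1 was 9.25 and 7.30. Endothelial, basal and fibroblast marker means were also lowest in the tumours, and the part of any cell type was not tested.

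**Figure D5:**
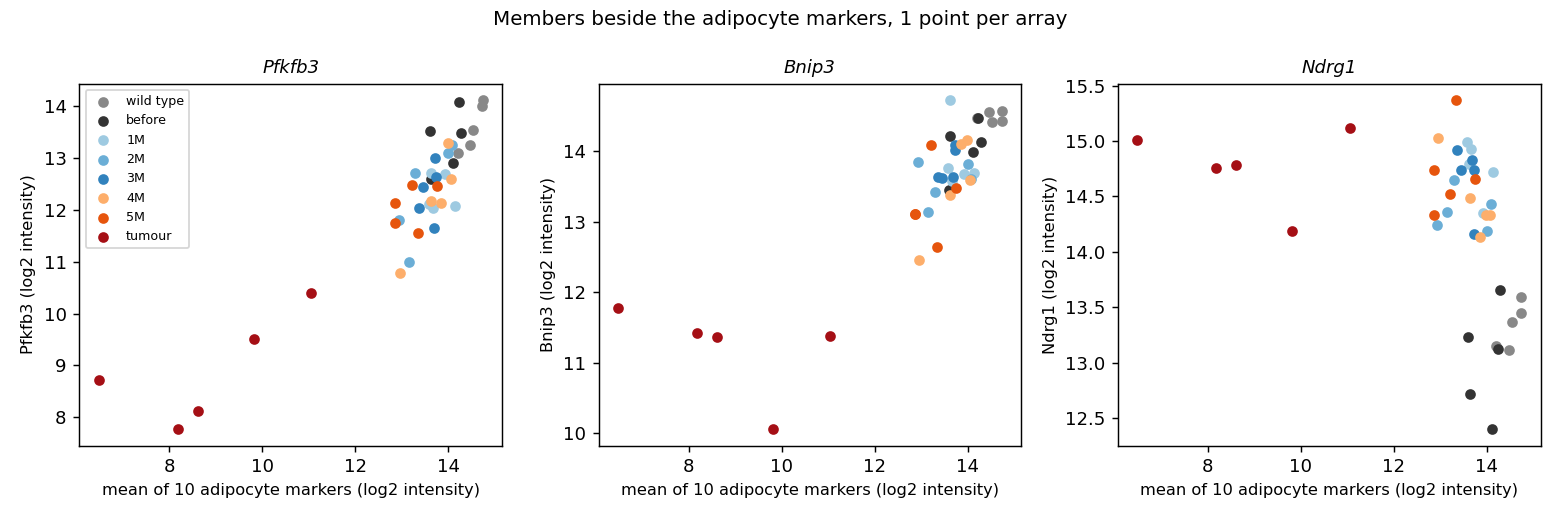
Log2 intensity of Pfkfb3, Bnip3 and Ndrg1 (y axes) against the mean of 10 adipocyte markers (x axes, log2 intensity), 1 point per array coloured by group. The 5 tumours lie to the left at 6.48 to 11.05, and in Ndrg1 the controls lie below the other glands, with the wild_type arrays furthest to the right at 14.20 to 14.74.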

How the data were processed

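Total RNA (50 ng per sample) was amplified and hybridised to Affymetrix mouse arrays, 1 per mouse. The authors normalized the arrays with GCRMA in GeneSpring and deposited intensity values on a linear scale, whose columns name groups only, and log2 values per array, from which the median of the same probe set had been subtracted. Levels here are the deposited log2 values plus the median log2 intensity of the probe set over all 40 arrays (the tables differed by at most 1.04e-06). Each comparison was fitted on its own arrays with limma 3.58.1 in R 4.3.3 (lmFit and eBayes, two-sided), with p-values adjusted by Benjamini-Hochberg over the 45037 probe sets that are not array controls. The script was tested on simulated data. The number of arrays limits the precision, and 52.2% of the probe sets had a mean below 5. Of the probe sets, 34945 name 1 gene, 932 name several and 9160 none, by platform annotation. A gene was read from its probe set with the highest mean. The text names every listed gene that passed a test and, of the further lists, genes with the smallest p. The members and all lists were chosen with earlier results of these data known. The further lists held other isoforms and opposing enzymes, pyruvate dehydrogenase and the citrate cycle, the pentose phosphate pathway, oxygen sensing, other HIF targets and glycogen. Marker lists described tissue makeup. Alternatives covered the controls, the fit, the normalization, the filter on dim probe sets, array weights, the methods' t-test, a replicate block and arrays left out. Leaving out the arrays with muscle or brown fat was chosen after seeing the data. Replicate numbers were not used as pairs: of 12 pairs of groups checked, only 3M with before_activation had all 5 same-numbered correlations above 0.1 (0.23 to 0.68), and every comparison checked held a pair of groups that did not (4M and 5M against 2M and 3M was not checked).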

Additional observations from a re-analysis of the deposited data

Results flagged for a closer look

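In 248 sets of 1 gene in 1 group of 5 arrays, 26 held an array whose gap to its nearest neighbour was over 0.71 of the range of the group, where chance gives about 1 set in 20. In the tumours these were tumour 1 for Pfkp (13.35), Eno2 (8.44) and Slc16a3 (4.67), tumour 3 for Aldoc (10.61), tumour 4 for P4ha2 (10.30) and tumour 5 for Bnip3 (10.06). In 1M they were replicate 5 for Pfkfb4 (7.27), Tpi1 (12.99), Pkm (12.33), Slc16a3 (2.20) and Bnip3 (14.72), and replicate 3 for Hif1a (12.92), P4ha1 (10.09) and P4ha2 (10). In 3M they were replicate 2 for Slc16a3 (2.43), replicate 4 for Ndrg1 (14.16) and replicate 5 for Pfkm (9.45). In 4M replicate 2 stood apart for Slc2a1 (12.15) and Ankrd37 (2.97), and in 5M replicate 1 did for Slc2a3 (9.74) and Ankrd37 (5.81) and replicate 4 for Slc16a3 (2.49). In wild_type they were replicate 1 for Hk2 (13.10) and Ldha (14.89), replicate 2 for Ankrd37 (5.17) and replicate 3 for P4ha2 (11.27). Levels of Slc16a3 near 2 lie at the floor of the scale.

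The difference of Eno2 from the controls was larger in 4M and 5M than in 2M and 3M, by -2.03 on the log2 scale in the test of 4M and 5M against 2M and 3M. The limma adjusted p was 0.0444, and the call was lost in 16 of 20 removals of 1 array.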

How the results depend on the processing

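No call reversed under any alternative, where a gene past the threshold in neither fit counts as unchanged. The counts below include calls gained under an alternative. Of the tumours against the controls, the count of 6 higher genes was 3 with before_activation alone as controls and 3 with the methods' t-test, which left 2 of the 4 past the 5-fold rule. The count of 10 lower genes in 2M and 3M was 6 with all groups in 1 fit and 0 with before_activation alone. The count of 9 lower genes in 4M and 5M was 4 with before_activation alone, 3 without low Dap arrays and 3 without muscle arrays, and the 5-fold rule took 1 with array weights and 1 without low Dap arrays, against 0. The count of 2 lower genes in 1M was 1 with all groups, 1 with the replicate block, 0 with before_activation alone, 1 with the t-test, 5 with array weights and 0 without muscle arrays, and the 5-fold rule took 1 with array weights. For before_activation against wild_type, all groups in 1 fit gave 1 higher gene and the t-test 2 higher and 1 lower. For the tumours against 4M and 5M, the count of 4 higher genes was 9 with all groups, 1 with the t-test (Pgk1, not among the 4), 7 with array weights, 7 with the mean of a gene's probe sets and 1 without low Dap arrays (Hk1), muscle arrays (Pgk1) or brown fat arrays (Pgk1), and the 1 past the 5-fold rule was 2 with all groups, 2 with the block, 0 with the t-test, 4 with weights and 0 with the mean of probe sets. The 1 lower gene in 4M and 5M against 2M and 3M was 0 with the t-test, 2 with weights and 0 without low Dap, muscle or brown fat arrays. The cause was not tested. Leaving out single arrays gave, for the tumours against the controls, 5 to 8 higher, 7 to 10 lower and 3 to 6 past the 5-fold rule. It gave 2 to 2 higher and 8 to 12 lower in 2M and 3M, 2 to 3 higher, 6 to 10 lower and 0 to 1 past the 5-fold rule in 4M and 5M, 2 to 3 higher and 0 to 3 lower in 1M, 1 to 8 higher, 5 to 5 lower and 1 to 3 past the rule for the tumours against 4M and 5M, and 0 to 2 lower in 4M and 5M against 2M and 3M. Correlations of same-numbered arrays were -0.08 to 0.11 for the tumours with wild_type, 0.00 to 0.20 for the tumours with 4M (4 of 5 above 0.1), -0.14 to 0.42 for 2M and 0.05 to 0.52 for 3M with wild_type (4 of 5 each), and 0.23 to 0.68 for 3M with before_activation (5 of 5). Each comparison checked held a pair of groups not above 0.1 throughout, so the numbers were not taken as pairs. With the replicate block, P4ha1 in the tumours against 4M and 5M (adjusted p = 0.078) and Pdk1 in 1M (0.0663) were lost and Pdk1 in 4M and 5M passed (0.0476), and the block changed no other call of the 30 genes. Over all probe sets, counts for the tumours against the controls were 8471 higher (5440 to 10275 over the alternatives) and 6480 lower (4999 to 7530). They were 2412 (1143 to 3367) and 2942 (793 to 4097) in 2M and 3M, 3515 (1892 to 4177) and 3161 (1163 to 4102) in 4M and 5M, 1201 (341 to 3540) and 531 (58 to 3208) in 1M, 0 (0 to 844) and 0 (0 to 10837) for before_activation against wild_type, 6478 (3255 to 8294) and 4868 (3278 to 5640) for the tumours against 4M and 5M, and 78 (1 to 538) and 97 (0 to 590) for 4M and 5M against 2M and 3M.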
